A study of Mus musculus with 12 samples.

Results

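The genes described here encode the semaphorins, their plexin and neuropilin receptors, the netrins and netrin receptors, the netrin-G proteins and the Eph receptors, measured in inner hair cells (IHCs) and outer hair cells (OHCs) of the newborn mouse cochlea. Members were chosen by gene name: every protein-coding gene in the count files whose GENCODE name starts with Sema3 to Sema7, Plxn or Unc5, or is one of the named neuropilins, netrins, netrin-Gs, netrin receptors or Eph receptors. The rule found 58 genes among the 55416 in the files: 7 class 3 semaphorins, 6 of class 4 and 7 of classes 5, 6 and 7, 9 plexins, 2 neuropilins, 3 netrins, 2 netrin-Gs, 6 netrin receptors, 9 EphA receptors and 5 EphB receptors. Unc50, a protein of intracellular trafficking, and Unc5cl, a death-domain protein, enter through their names only and make up the remaining 2. The antisense genes of Plxna4, which are not protein-coding, were left out.

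Semaphorins are secreted or membrane-bound guidance proteins that act through plexins, and most class 3 semaphorins need a neuropilin as co-receptor. Netrins attract or repel growing axons through Dcc, neogenin and the Unc5 receptors, while the netrin-Gs are lipid-anchored membrane proteins that bind other partners, the netrin-G ligands, and not the netrin receptors. Eph receptors are tyrosine kinases that read ephrins on neighbouring cells, and in the cochlea Eph receptors and the semaphorin receptor neuropilin 2 are known from the wiring of spiral ganglion afferents to hair cells.

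RNA was sequenced from 6 pools of IHCs and 6 pools of OHCs, all from P0 pups labelled wild type. The sorted cells of both groups came from cochleae of the same transgenic cross, which carried Atoh1-GFP, Insm1-GFP-Cre and the R26-TdTomato reporter: IHCs were the cells with GFP alone and OHCs those with GFP and tdTomato, so that the separation rests on Cre driven by Insm1, a gene of developing OHCs. Each pool held cells of several pups of both sexes, and the pools are treated as biological replicates. The reads assigned to genes numbered 31490204 to 44017309 in the IHC libraries, against 29564827 to 39121988 in those of OHCs. IHC replicate 1 stood apart, with 56.9% of its counts on ribosomal RNA and 13565175 counts on other genes, against 21162439 to 29088104 in the OHC libraries. The summed level of 3 IHC markers (Tbx2, Fgf8, Slc17a8) was 331 to 585 CPM (counts scaled to the TMM-normalized library size, which for IHC replicate 1 is 0.486 of its total) in IHCs and 5.57 to 52.8 CPM in OHCs, and that of 3 OHC markers (Insm1, Bcl11b, Neurod6) was 0.184 to 1.20 CPM in IHCs against 98.3 to 183 CPM in OHCs, so the labels matched the markers in every library. Of these markers, Insm1 is not independent of the labels, because the sort rested on Cre driven by it. Supporting cell markers (10 genes) summed to 310 to 831 CPM in IHCs against 138 to 363 CPM in OHCs, markers of the greater epithelial ridge, the epithelium beside the IHCs (6 genes), to 837 to 1667 against 293 to 718 CPM, and endothelial markers (10 genes) to 0.458 to 13.0 against 22.7 to 239 CPM. A list of 9 markers of spiral ganglion neurons summed to 533 to 1205 CPM in IHCs and 134 to 306 CPM in OHCs. All 4 of these that could be tested were higher in IHCs, 2 of them with an edgeR adjusted p under 0.05. Prph had no more than 3 counts in every library, as did Slc17a7 in the IHC libraries and Tubb3 and Neurod1 in the OHC libraries. The 8 mesenchymal markers summed to 33.9 to 58.0 CPM in IHCs against 7.22 to 21.9 CPM in OHCs. The part of these other cells in the differences below was not tested, and in bulk libraries fewer cells of a type and less RNA per cell cannot be told apart.

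Of the 58 members, 45 had enough counts to be tested. By the quasi-likelihood test of edgeR, adjusted after Benjamini and Hochberg over the 13269 genes tested, 4 members were IHC-enriched (adjusted p under 0.05): the ephrin receptor Epha7, the semaphorin Sema5b, the netrin-G Ntng2 and the plexin Plxnb1. These are 8.89% of the members tested, against 3.81% of all genes tested in this direction and 6.26% in either. No member was OHC-enriched by this test, a call made for 2.44% of all genes, and none reached an unadjusted p under 0.05 in that direction. In the other direction 10 of the 45 members, the 4 included, had an unadjusted p under 0.05. Over all genes tested 21.8% had such a p in either direction, so the count for the members is near the share of all genes. Leaving out 1 library at a time gave 1 to 5 IHC-enriched members: the same 4 without IHC replicate 1, but Epha7 alone without OHC replicate 1 or OHC replicate 2, and Epha7 and Sema5b without OHC replicate 4. The log2 fold change (OHC against IHC throughout, so that negative values are higher in IHCs) was below 0 in 33 of the 45 members, with a median of -0.42, whereas 51.8% of all genes tested were below 0 and their median was -0.04. A list of 10 hair cell markers lay the same way, with 9 below 0, a median of -0.65 and 4 called as IHC-enriched (Gfi1, Espn, Pvalb and Otof). The study names Otof and Gfi1 among its IHC-enriched genes, so this list is not neutral between the cell types. The 10 markers summed to 6056 to 9638 CPM in IHCs against 4497 to 5750 CPM in OHCs. Otof alone was at 1417 to 3699 CPM in IHCs against 354 to 664 CPM in OHCs. In 2 members, Epha7 and Ntng2, every IHC library lay above every OHC library, as in 2.37% of all genes tested, and in none of the 45 did every OHC library lie above every IHC library, as in 2.22%.

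**Figure D1:**
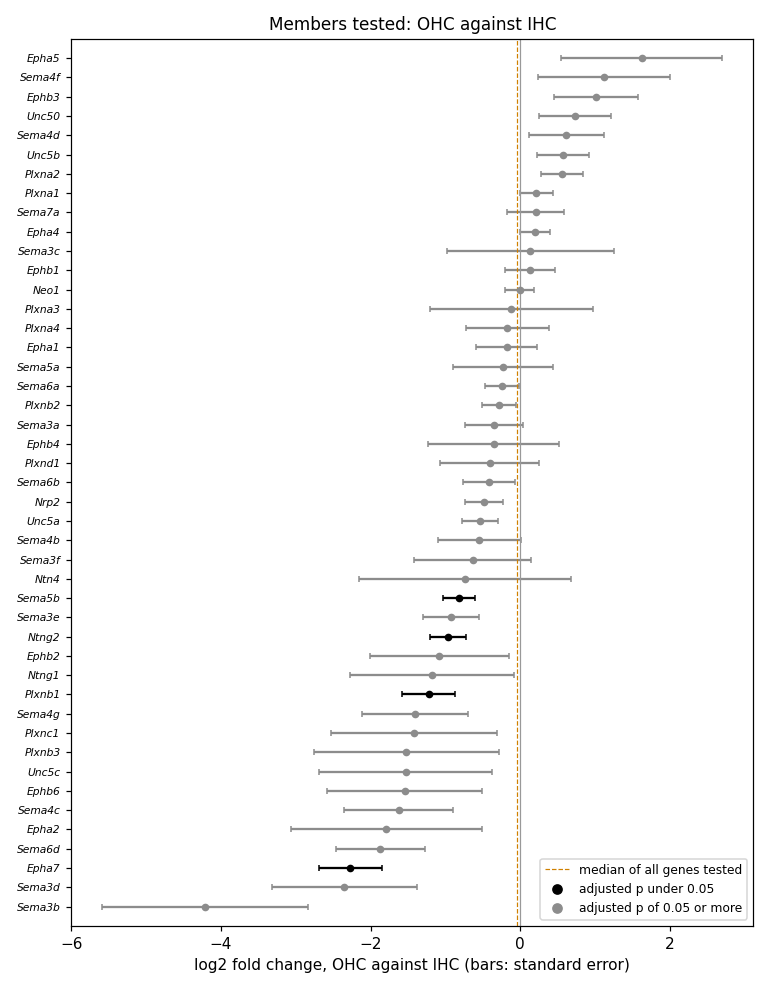
Log2 fold change (horizontal axis, OHC against IHC) of the 45 members tested, with bars of 1 standard error. The 4 called members (black) lie left of 0, between -2.27 and -0.82, and the dashed line marks the median of all genes tested, -0.04.

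The 4 IHC-enriched genes lie on different chromosomes. The 250 bases before the start of the Ensembl canonical transcript (GRCm39, GENCODE vM39) are shown for 3 of them. Capitals mark CpG dinucleotides, and each sequence runs 5′ to 3′ on the strand of the gene. The windows are chr4:28812784-28813033 (plus strand) for Epha7, chr16:35361234-35361483 (plus strand) for Sema5b and chr9:108924207-108924456 (plus strand) for Plxnb1. Of these, only the window of Epha7 lies in front of the whole annotated gene. Those of Sema5b and Plxnb1 lie inside the annotated genes, which start at bases 35360820 and 108923419, but outside their exons. The window of Ntng2, chr2:29138053-29138302 (minus strand), is not shown because 248 of its 250 bases lie in exons of other Ntng2 transcripts.
Epha7: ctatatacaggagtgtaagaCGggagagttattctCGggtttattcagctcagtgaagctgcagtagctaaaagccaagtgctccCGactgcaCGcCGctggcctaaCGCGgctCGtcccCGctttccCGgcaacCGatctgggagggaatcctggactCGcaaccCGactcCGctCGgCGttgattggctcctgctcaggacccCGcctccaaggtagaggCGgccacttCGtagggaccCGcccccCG
Sema5b: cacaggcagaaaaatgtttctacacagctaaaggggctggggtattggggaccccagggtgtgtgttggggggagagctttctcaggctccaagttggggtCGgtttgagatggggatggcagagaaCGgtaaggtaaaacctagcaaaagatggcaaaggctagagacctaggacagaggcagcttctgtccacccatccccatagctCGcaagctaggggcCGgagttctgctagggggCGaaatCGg
Plxnb1: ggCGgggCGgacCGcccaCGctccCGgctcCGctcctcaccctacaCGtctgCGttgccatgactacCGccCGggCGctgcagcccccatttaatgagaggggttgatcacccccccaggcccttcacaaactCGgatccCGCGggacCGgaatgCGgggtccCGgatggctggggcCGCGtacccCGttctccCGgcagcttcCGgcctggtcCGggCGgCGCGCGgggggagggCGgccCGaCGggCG
These windows differed in base composition. Plxnb1 had a GC content of 74.0% and 31 CpG dinucleotides, Epha7 61.2% and 21, and Sema5b 55.6% and 6, against medians of 53.2% and 8 over the same window of 21770 protein-coding genes and 62.2% and 12.5 over the 58 members. None of the 4 windows held GGTGTGA, the core of T-box sites, or the E-box CAGCTG on either strand, which occurred in 3.23% and 11.9% of all windows, and 1 of them, that of Ntng2, held the E-box form CAGATG, starting at base -99 from the start, found in 13.0% of all windows. The 3 motifs were searched on both strands, and no match says only that these letters are not in the window.

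Among the EphA receptors, Epha7 showed the difference with the smallest adjusted p of any member. Epha7 binds the lipid-anchored ephrin-A ligands. In the 6 IHC libraries its level was 187, 82.1, 65.7, 122, 70.8 and 95.2 CPM. In the 6 OHC libraries it was 7.01, 18.1, 37.3, 36.5, 22.5 and 7.30 CPM. Every IHC library thus exceeded every OHC library, with OHC replicates 1 and 6 lowest and IHC replicate 1 highest. The mean was 104 ± 45.4 CPM in IHCs against 21.5 ± 13.4 CPM in OHCs (SD, n = 6 each), 4.83-fold higher in IHCs (log2 fold change -2.27, SE 0.42, edgeR adjusted p = 0.0023). The difference was called in all 19 alternative fits, leave-one-out fits included, with log2 fold changes from -2.53 to -2.03.

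Epha4, which binds ephrins of both the A and B kind, was the leading EphA receptor per length of exon in all 12 libraries. The level of Epha4 was 225, 259, 227, 182, 172 and 218 CPM in the IHC libraries. The OHC libraries had 213, 278, 278, 172, 307 and 225 CPM. The ranges overlapped almost completely, and the log2 fold change of 0.20 had a 95% interval of -0.18 to 0.58 (edgeR adjusted p = 0.591). Per kilobase of exon, Epha4 held 61.3% of the summed EphA level in IHCs and 75.7% in OHCs, and the second in order was Epha7 in IHCs (8.27 CPM per kilobase) and Epha1 in OHCs (6.84 CPM per kilobase). The ratio of Epha7 to Epha4 per length ran from 0.190 to 0.546 in IHC libraries and from 0.0214 to 0.140 in OHC libraries. Summed over the 9 EphA receptors the level was 42.7 ± 7.03 CPM per kilobase in IHCs and 39.1 ± 4.50 in OHCs (SD, n = 6), so the sums differed by less than the spread between libraries.

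Epha5, another receptor for ephrin-As, rested on 1 library. Its level was 0.719, 0.147, 0.157, 0.378 and 0.153 CPM in IHC replicates 1 to 5 and 16.8 CPM in IHC replicate 6. The OHC libraries had 4.25, 11.4, 5.26, 13.5, 8.14 and 14.1 CPM. All OHC libraries lay above 5 of the IHC libraries and below the other one. With all libraries the log2 fold change was 1.62 (SE 1.08, edgeR adjusted p = 0.405), and without IHC replicate 6 it was 4.92 (adjusted p = 0.00283). Epha1 and Epha2, the remaining EphA receptors tested, had log2 fold changes of -0.18 (SE 0.41) and -1.79 (SE 1.27) and were not called. For Epha1, 36.9% of the exon sequence overlaps Zyx, a more abundant gene on the opposite strand, and the strand setting of the counting is not given in the sources used here, so its level is uncertain. Epha3, Epha6, Epha8 and Epha10 did not pass the count filter. Epha3 had at most 20 counts in IHC libraries and at most 105 in OHC libraries, Epha6 at most 42 and 2, Epha8 at most 2 and 3, and Epha10, which lacks kinase activity, at most 2 and 1.

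None of the 5 EphB receptors, which bind the transmembrane ephrin-Bs, was called. Ephb1 led this class per length in all 6 IHC libraries and in 5 OHC libraries, with 57.6, 33.6, 34.7, 52.7, 51.1 and 57.2 CPM in IHCs. In OHCs its level was 19.3, 63.7, 47.2, 44.6, 92.3 and 47.6 CPM. The OHC values enclosed the IHC values, and the log2 fold change of 0.13 (95% interval -0.51 to 0.78, edgeR adjusted p = 0.852) changed sign to -0.11 without OHC replicate 5. Ephb3 was at 1.89 to 24.4 CPM in IHCs against 11.5 to 29.7 CPM in OHCs (log2 fold change 1.02, SE 0.56, adjusted p = 0.303). Ephb2, Ephb4 and Ephb6, the last a receptor without kinase activity, had means below 10 CPM in both cell types and log2 fold changes of -1.08, -0.36 and -1.54, with standard errors of 0.93, 0.87 and 1.03.

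Among the semaphorins, the transmembrane semaphorin Sema5b was the most abundant member per length in both cell types. Its level was 837, 901, 1929, 1353, 1060 and 1216 CPM in the IHC libraries. In the OHC libraries it was 617, 550, 707, 676, 955 and 623 CPM. The groups overlapped: OHC replicate 5 exceeded IHC replicates 1 and 2, and the other 5 OHC libraries lay below every IHC library. Mean levels were 1216 ± 399 CPM in IHCs against 688 ± 142 CPM in OHCs (SD, n = 6 each), a 1.77-fold difference (log2 fold change -0.82, SE 0.21, edgeR adjusted p = 0.023). Per kilobase, the mean of 155 CPM in IHCs exceeded 99.4% of all genes tested, and that of 87.7 CPM in OHCs exceeded 99.0%. The call was lost without IHC replicate 3 (adjusted p = 0.0549), OHC replicate 1 (0.0523), OHC replicate 2 (0.0579) or OHC replicate 6 (0.0586), with log2 fold changes from -0.94 to -0.65 over the 12 leave-one-out fits.

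**Figure D2:**
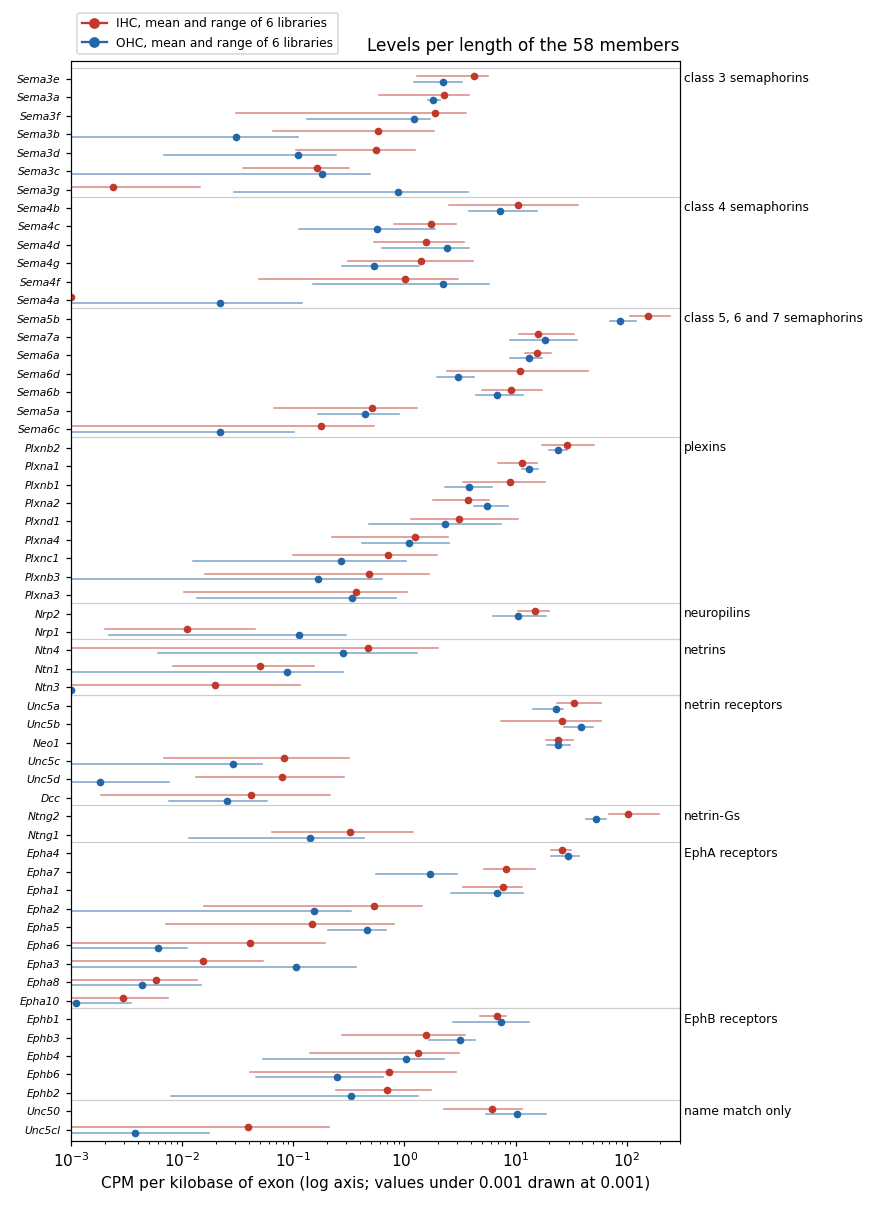
Mean (points) and range over 6 libraries (lines) of the level of each of the 58 members in CPM per kilobase of exon (log axis), by class, in IHCs and OHCs. Sema5b has the highest mean in both cell types, 155 and 87.7 CPM per kilobase, followed by Ntng2 with 103 and 52.9, and the netrins Ntn1, Ntn3 and Ntn4 lie below 1.

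The other semaphorins of classes 5, 6 and 7, all but the lipid-anchored Sema7a being transmembrane proteins, did not pass the threshold. Sema6d was called in 7 of 19 alternative fits and rested on IHC replicate 1. The level of Sema6d was 514 CPM there and 43.8, 28.1, 29.2, 110 and 38.4 CPM in the other IHC libraries. In the OHC libraries it was 22.7, 35.1, 49.1, 37.7, 28.5 and 35.8 CPM. Apart from IHC replicates 1 and 5, the IHC libraries lay within the OHC range, and the log2 fold change of -1.87 (SE 0.60, edgeR adjusted p = 0.0666) was -0.53 (adjusted p = 0.445) without IHC replicate 1. Sema6a, Sema6b and Sema7a had means of 45.7 to 148 CPM and log2 fold changes of -0.24, -0.42 and 0.21 with 95% intervals of -0.69 to 0.21, -1.11 to 0.27 and -0.53 to 0.94. Sema5a, the closest relative of Sema5b, was at 10.5 ± 9.07 CPM in IHCs against 8.99 ± 5.17 CPM in OHCs (SD, n = 6; log2 fold change -0.23, SE 0.67). Sema6c did not pass the filter, with at most 211 counts in IHC libraries and at most 40 in OHC libraries. Summed per length, the 7 genes gave 207 ± 46.9 CPM per kilobase in IHCs and 129 ± 23.6 in OHCs, of which Sema5b held 74.6% and 67.8%.

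No class 3 semaphorin, the secreted group, was called, and the log2 fold change was below 0 in 5 of the 6 tested. The leading member per length was Sema3e, which signals through Plxnd1 without a neuropilin. The level of Sema3e was 66.0, 44.2, 67.7, 45.3, 15.5 and 66.2 CPM in IHCs. OHC libraries had 14.5, 22.7, 21.6, 39.5, 38.4 and 23.9 CPM. All IHC libraries but replicate 5 exceeded all OHC libraries, and the log2 fold change was -0.93 (SE 0.38, edgeR adjusted p = 0.154). Sema3a, which acts through Nrp1 and plexin-As, was at 9.16 to 59.8 CPM in IHCs against 25.5 to 32.5 CPM in OHCs (log2 fold change -0.35, SE 0.39). Sema3f, which acts through Nrp2, was at 0.171 to 20.2 CPM and 0.756 to 9.55 CPM (log2 fold change -0.63, SE 0.78).

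Sema3b and Sema3d were called as IHC-enriched by DESeq2, and Sema3b also by edgeR's exact test, but neither by the quasi-likelihood test. Sema3b had 0.327, 0.489, 1.31, 5.04, 9.10 and 0.899 CPM in IHCs against 0.539, 0.0305, 0.326, 0, 0 and 0 CPM in the OHC libraries, with OHC replicate 1 above IHC replicates 1 and 2 (log2 fold change -4.21, SE 1.38, edgeR adjusted p = 0.0743). Sema3d had 0.942 to 11.2 CPM in IHCs against 0.0610 to 2.17 CPM in OHCs (log2 fold change -2.35, SE 0.97, adjusted p = 0.162). Sema3c was near 1 CPM in both cell types (1.34 ± 0.861 and 1.47 ± 1.77 CPM).

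Sema3g did not pass the filter, although its 6 OHC libraries all lay above its 6 IHC libraries. It had 1, 0, 0, 0, 0 and 0 counts in IHCs and 780, 6, 54, 177, 4 and 14 counts in OHCs. OHC replicate 1 was far above the others, at 16.8 CPM. Against a floor of 3 counts per library the OHC mean was at least 40.3-fold higher, and at least 14.6-fold higher without OHC replicate 1. Fits that kept the gene gave an edgeR adjusted p of 0.00362 (no filter) and a DESeq2 adjusted p of 1.96e-07. The endothelial markers, which are also higher in the OHC libraries, summed to 72.9, 22.7, 239, 80.3, 32.7 and 74.8 CPM in OHC replicates 1 to 6, and 6 of 8 of those tested were called as OHC-enriched. In the IHC libraries 6 of the 10 (Cldn5, Tie1, Tek, Esam, Adgrf5 and Ptprb) had at most 3 counts in every library. The endothelial sum was highest in OHC replicate 3 and Sema3g in OHC replicate 1, and the part of endothelial RNA in the Sema3g counts was not tested.

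**Figure D3:**
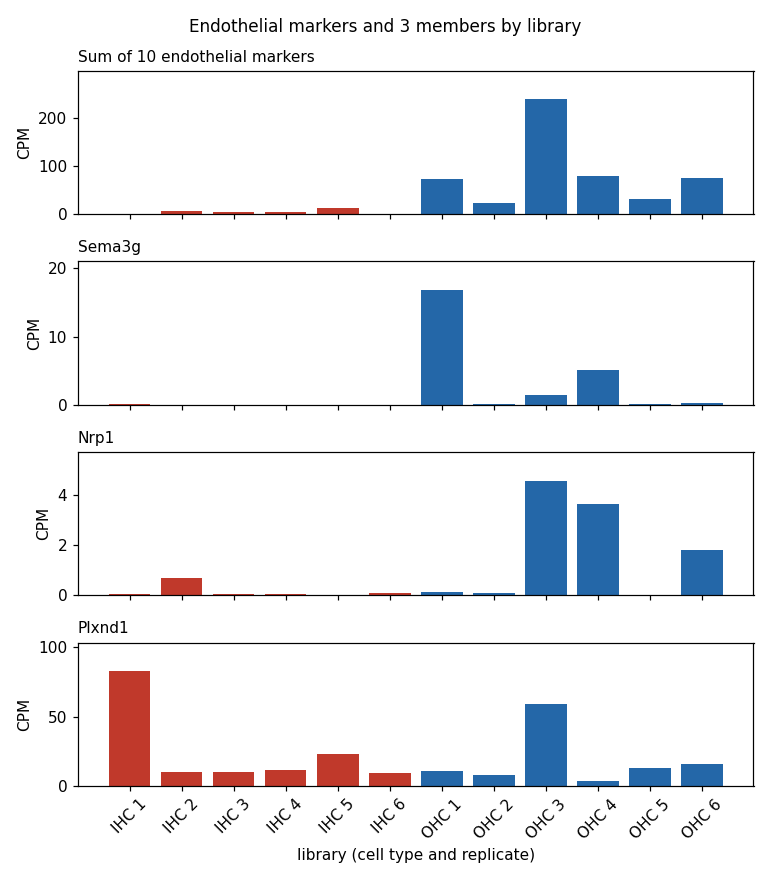
Summed level of the 10 endothelial markers and levels of Sema3g, Nrp1 and Plxnd1 (bars, CPM, linear axes from 0) in each of the 6 IHC and 6 OHC libraries. The marker sum is highest in OHC replicate 3 (239 CPM), as is Nrp1 (4.59 CPM), whereas Sema3g is highest in OHC replicate 1 (16.8 CPM) and Plxnd1 in IHC replicate 1 (82.6 CPM).

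No class 4 semaphorin, a group of transmembrane ligands for B plexins among others, was called. Sema4b led the class per length in all 12 libraries. Its level was 243, 24.7, 27.1, 16.7, 78.1 and 31.3 CPM in IHCs. The OHC libraries had 26.4, 62.4, 31.5, 103, 39.9 and 25.2 CPM. IHC replicate 1 again stood above all others, and the log2 fold change of -0.55 (SE 0.56, edgeR adjusted p = 0.610) changed sign to 0.41 without it. Sema4c, a ligand of Plxnb2, was at 5.20 to 19.0 CPM in IHCs and, apart from 12.1 CPM in OHC replicate 3, at 0.734 to 3.79 CPM in OHCs. The log2 fold change of Sema4c was -1.62 (SE 0.73, adjusted p = 0.199) with all libraries and -2.53 (adjusted p = 0.0497) without OHC replicate 3, and 16.8% of its exon sequence overlaps an antisense RNA, D430040D24Rik. Sema4d, the best known ligand of Plxnb1, was at 6.84 to 43.9 CPM in IHCs against 8.05 to 49.1 CPM in OHCs (log2 fold change 0.61, SE 0.50). Sema4f and Sema4g had log2 fold changes of 1.12 (SE 0.88) and -1.41 (SE 0.71). Sema4d shares 13.7% of its exon sequence with Secisbp2 and Sema4g 12.7% with Mrpl43, in both cases on the opposite strand. Sema4a had no counts in IHC libraries and at most 40 in OHC libraries.

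Among the plexins, the receptors of semaphorins, 1 of 9 was called: Plxnb1. Its level was 91.0, 129, 43.6, 81.6, 238 and 107 CPM in the IHC libraries. In the OHC libraries it was 62.3, 41.0, 30.3, 31.2, 51.2 and 80.2 CPM. The groups overlapped through IHC replicate 3, which lay below OHC replicates 1, 5 and 6, while the other 5 IHC libraries exceeded all OHC libraries. Means were 115 ± 66.7 CPM in IHCs against 49.4 ± 19.4 CPM in OHCs (SD, n = 6 each), 2.33-fold higher in IHCs (log2 fold change -1.22, SE 0.35, edgeR adjusted p = 0.0435). This was the weakest of the 4 calls: it was lost in 8 of the 12 fits that left out 1 library (IHC replicates 2, 5 and 6 and OHC replicates 1 to 5), with adjusted p up to 0.123 without IHC replicate 5. The log2 fold change was -0.89 in that fit and -1.30 to -1.12 in the other 7. That library, the highest for Plxnb1, also had the highest sum of supporting cell markers, 831 CPM, against 310 to 606 CPM in the other IHC libraries; the part of supporting cell RNA in the difference was not tested. An antisense gene, Gm7628, overlaps 3.96% of the Plxnb1 exons.

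Plxnb2, a receptor of class 4 semaphorins, led the plexins per length in all 12 libraries and held 48.8% of their summed level in IHCs and 47.2% in OHCs. Its level was 415, 234, 207, 207, 223 and 141 CPM in IHCs against 236, 189, 199, 214, 173 and 165 CPM in the OHC libraries. These overlapped, and the log2 fold change was -0.28 (95% interval -0.73 to 0.17, edgeR adjusted p = 0.512). Plxna1 was second per length in both cell types, with 178 ± 58.5 CPM in IHCs against 207 ± 28.8 CPM in OHCs (SD, n = 6; 95% interval of the log2 fold change -0.23 to 0.66). Plxna2 was at 31.4 to 98.8 CPM in IHCs against 72.1 to 146 CPM in OHCs (log2 fold change 0.56, SE 0.28, adjusted p = 0.254), and it overlaps the antisense gene Gm6403 over 15.4% of its exons. Plxnd1, the receptor of Sema3e and a receptor of endothelial cells, was at 9.18 to 82.6 CPM in IHCs against 3.78 to 58.7 CPM in OHCs, highest in IHC replicate 1 and, among OHC libraries, in replicate 3 (log2 fold change -0.41, SE 0.66). Plxna3, Plxna4, Plxnb3 and Plxnc1, the receptor of Sema7a, had means of 1.09 to 18.1 CPM and log2 fold changes of -0.12, -0.17, -1.52 and -1.42 with standard errors of 1.09, 0.55, 1.24 and 1.11.

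Of the neuropilins, Nrp2, the co-receptor for Sema3f, made up over 97% of the summed level per length in every library (97.4% at the lowest). Its level was 125, 180, 238, 152, 210 and 165 CPM in IHCs. OHC libraries had 226, 116, 135, 110, 75.8 and 100 CPM. Only OHC replicates 1 and 3 reached the IHC range, and the log2 fold change was -0.49 (95% interval -0.99 to 0.01, edgeR adjusted p = 0.271). Nrp1, the co-receptor for Sema3a and for vascular endothelial growth factor, did not pass the filter. It had 1, 28, 2, 3, 1 and 4 counts in IHCs and 7, 3, 169, 125, 1 and 77 counts in OHCs. The groups overlapped, OHC replicate 3 was highest at 4.59 CPM, and DESeq2 called it OHC-enriched (adjusted p = 0.0252) while edgeR without a filter did not (adjusted p = 0.155). OHC replicate 3 also had the highest endothelial marker sum, 239 CPM, and the part of endothelial RNA in the Nrp1 counts was not tested.

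**Figure D4:**
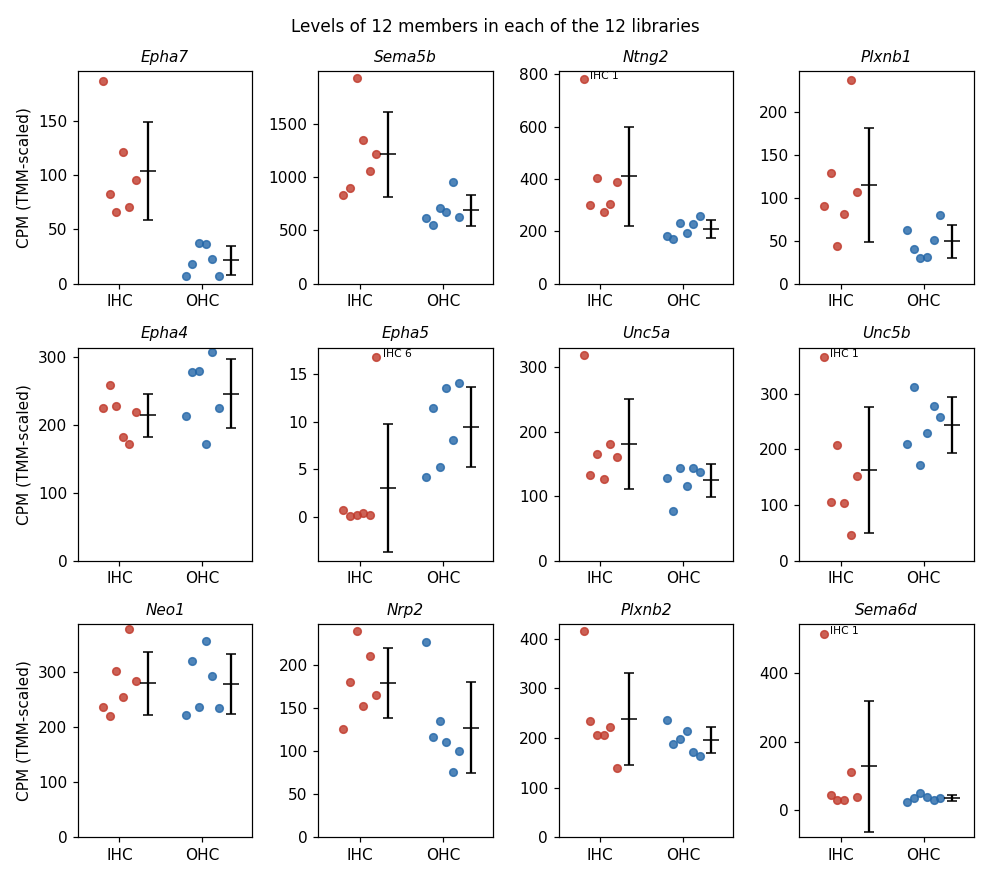
Level (CPM, linear axes) of 12 members in each of the 6 IHC (red) and 6 OHC (blue) libraries, with the mean and SD beside the points. Epha7 and Ntng2 do not overlap between cell types, and single IHC libraries stand above the others for Epha5 (replicate 6, 16.8 CPM) and for Ntng2, Unc5a, Plxnb2 and Sema6d (replicate 1, 514 CPM for Sema6d).

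The netrins were near the detection limit in both cell types. Ntn1 had at most 33 counts in IHC libraries and at most 67 in OHC libraries, and Ntn3 at most 22 counts in IHCs and none in OHCs. Ntn4 led by mean, through single libraries: 7.82 CPM in IHC replicate 2 and 5.04 CPM in OHC replicate 5, with the other libraries at 0 to 2.70 CPM. Its log2 fold change of -0.73 had a standard error of 1.42 and changed sign to 0.85 without IHC replicate 2. The summed netrin level was 0.536 ± 0.777 CPM per kilobase in IHCs and 0.369 ± 0.480 in OHCs (SD, n = 6).

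The netrin receptors were far more abundant, with a summed level of 83.8 ± 28.6 CPM per kilobase in IHCs and 85.8 ± 8.64 in OHCs. Neo1, neogenin, a receptor of netrins and of the repulsive guidance molecules, was at 236, 220, 303, 255, 379 and 285 CPM in IHCs. Its OHC values were 223, 321, 237, 357, 294 and 236 CPM. The groups covered the same range, and the log2 fold change was -0.01 with a 95% interval of -0.39 to 0.37. Dcc, the classical receptor of netrin attraction, did not pass the filter, with at most 26 counts in OHC libraries and, apart from 104 in replicate 6, at most 4 in IHC libraries.

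The Unc5 receptors mediate repulsion by netrin. Unc5a led the netrin receptors per length in IHCs by mean, and Unc5b in OHCs. Unc5a was at 319, 133, 166, 127, 180 and 161 CPM in IHCs against 129, 77.6, 144, 116, 144 and 138 CPM in the OHC libraries, with IHC replicate 1 highest and overlap between the groups (log2 fold change -0.54, SE 0.25, edgeR adjusted p = 0.207). Unc5b was at 367, 105, 207, 103, 46.1 and 152 CPM in IHCs against 209, 313, 171, 230, 278 and 258 CPM in the OHC libraries (log2 fold change 0.58, SE 0.35, adjusted p = 0.350). For Unc5b too, IHC replicate 1 was the highest of all, and without it the log2 fold change was 0.98 (adjusted p = 0.0457). The ratio of Unc5b to Unc5a per length, which does not depend on library size, ran from 0.219 to 1.07 in IHC libraries (median 0.751) and from 1.02 to 3.45 in OHC libraries (median 1.63). It is given as a description, since the pair was chosen from its levels. Unc5c was at or below 6.06 CPM in every library (log2 fold change -1.53, SE 1.15). Unc5d had 2, 5, 26, 5, 22 and 97 counts in IHCs and 0, 1, 0, 0, 0 and 3 in OHCs. Every IHC library lay above every OHC library in CPM. IHC replicate 1, with fewer counts than OHC replicate 6, did so only through its small TMM-scaled library size (0.131 against 0.0702 CPM). Against a floor of 3 counts per library the IHC mean was at least 8.84-fold higher, and at least 4.20-fold higher without IHC replicate 6. Unc5d did not pass the filter, and DESeq2 called it IHC-enriched (adjusted p = 0.00122) while edgeR without a filter did not (adjusted p = 0.0736).

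Of the netrin-Gs, Ntng2 accounted for nearly the whole class, with at least 98.9% of the summed level per length in every library. Ntng2 is a neuronal adhesion protein of synapses. Its level was 782, 302, 405, 274, 306 and 389 CPM in the IHC libraries. In the OHC libraries it was 182, 170, 231, 193, 227 and 257 CPM. Every IHC library exceeded every OHC library, with IHC replicate 1 far above the rest. Means were 410 ± 190 CPM in IHCs against 210 ± 33.5 CPM in OHCs (SD, n = 6 each), 1.95-fold higher in IHCs (log2 fold change -0.96, SE 0.24, edgeR adjusted p = 0.0209), and without IHC replicate 1 the log2 fold change was -0.68 (adjusted p = 0.0236). Leaving out OHC replicate 1, 2 or 4 ended the call (adjusted p = 0.0536, 0.0572 and 0.0516). The noncoding gene 6530402F18Rik lies on the same strand and shares 14.1% of the Ntng2 exon sequence; it was not called itself. Ntng1 was at 0.523 to 9.74 CPM in IHCs against 0.0937 to 3.56 CPM in OHCs (log2 fold change -1.18, SE 1.10).

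Of the genes that match by name only, Unc50 was at 22.3 ± 14.4 CPM in IHCs against 37.1 ± 22.3 CPM in OHCs (SD, n = 6; log2 fold change 0.73, SE 0.48), and Unc5cl had at most 45 counts in IHC libraries and at most 3 in OHC libraries. Levels varied much between libraries of one cell type: the median coefficient of variation of the 45 members tested was 64.8% in IHCs and 57.8% in OHCs, against 62.8% and 51.3% over all genes tested. The 14 members with means below 10 CPM in both cell types had a median standard error of 1.10 on the log2 scale, against 0.38 for the other 31.

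Ligands, co-receptors and effectors of these receptors were followed through lists of 82 genes, of which 67 were tested and 8 called (11.9%, against 6.26% of all genes). In the ephrin list 1 of 7 tested genes was called. Efna5, an ephrin-A ligand of Epha7 and of other EphA receptors, was at 0.276 to 8.79 CPM (median 2.64) in IHCs and 200 to 318 CPM (median 213) in OHCs, the reverse direction to Epha7 (log2 fold change 5.99, SE 0.54, edgeR adjusted p = 8.99e-07). Its groups did not overlap. Efnb2, an ephrin-B ligand, was at 27.2 to 112 CPM and 54.4 to 104 CPM and was not called (adjusted p = 0.548). Efna2 and Efna3 had log2 fold changes of -2.74 and 2.70, both with an adjusted p above 0.1 (0.125 and 0.117).

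Among the co-receptors and other ligands, 2 of 5 tested genes were called as OHC-enriched. Nrcam, an immunoglobulin adhesion molecule that pairs with Nrp2, was at 189 to 316 CPM (median 225) in IHCs and 345 to 452 CPM (median 419) in OHCs without overlap (log2 fold change 0.76, SE 0.18, edgeR adjusted p = 0.0164). Kdr, a receptor for vascular endothelial growth factor that endothelial cells express, was at 0 to 0.122 CPM in IHCs against 1.36 to 41.1 CPM in OHCs. Its adjusted p was 0.000766. The sum of the 10 endothelial markers, which do not include Kdr, was also higher in the OHC libraries, and the part of endothelial RNA in the Kdr counts was not tested. Vegfa was not called (log2 fold change 1.48, SE 0.69).

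Among the partners of netrin and neogenin, 2 of 6 were called as IHC-enriched. Draxin, a secreted repellent that binds netrin and Dcc, was at 240 to 423 CPM (median 273) in IHCs and 31.5 to 98.2 CPM (median 36.0) in OHCs, without overlap (log2 fold change -2.75, SE 0.30, edgeR adjusted p = 7.38e-06). Rgma, a ligand of neogenin, was at 4.27 to 106 CPM in IHCs against 0.773 to 14.8 CPM in OHCs, with overlap (log2 fold change -2.88, SE 0.77, adjusted p = 0.0284). The Rgma call was lost without IHC replicate 5 or OHC replicate 2, 3, 5 or 6 (adjusted p = 0.0529 to 0.0816), with log2 fold changes from -2.94 to -2.41. Lrrc4, the netrin-G ligand that binds Ntng2, was at 3.60 to 14.8 CPM and 7.32 to 23.4 CPM and was not called.

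In the netrin effector list 3 of 12 tested genes were called. Trim9, a ubiquitin ligase that binds Dcc, was at 17.3 to 49.9 CPM in IHCs against 1.63 to 13.0 CPM in OHCs, without overlap (log2 fold change -2.19, SE 0.51, edgeR adjusted p = 0.0134). Trio, a signalling protein that acts downstream of Dcc, was higher in IHCs (52.7 to 281 against 28.5 to 66.7 CPM, log2 fold change -1.51, SE 0.36, adjusted p = 0.0163). Ptk2, focal adhesion kinase, was higher in OHCs (39.1 to 61.4 against 48.5 to 121 CPM, log2 fold change 1.03, SE 0.26, adjusted p = 0.0228), but not without OHC replicate 2, 3 or 4 (adjusted p = 0.0514 to 0.0673, log2 fold changes from 0.926 to 0.997). None of the 18 semaphorin effectors and none of the 19 Eph effectors tested was called. In each list 4 genes had an unadjusted p under 0.05, near the share of 21.8% over all genes tested. Median log2 fold changes of these lists were -0.21 and -0.25, against -0.04 over all genes.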

How the data were processed

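RNA was extracted from hair cells of P0 cochleae sorted by fluorescence, ribosomal RNA was depleted, and cDNA was amplified with NuGEN Ovation before paired-end sequencing. Per the labels and methods, the authors trimmed reads with Trimmomatic, aligned them with STAR to GRCm39 and counted reads per gene with HTSeq (GENCODE vM27), and the deposited values are raw counts, 1 file per library. Tool versions and the strand setting are not given in the sources used here.

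Counts were fitted with edgeR 4.0.16 (TMM normalization, filterByExpr with a minimum count of 10 and a total of 15, glmQLFit and glmQLFTest, 6 IHC against 6 OHC libraries, no covariate). Adjusted p-values are Benjamini-Hochberg over the genes tested, with a threshold of 0.05. Standard errors are the log2 fold change divided by the square root of the test's F statistic. The 95% intervals are a normal approximation from these standard errors and are somewhat narrower than the test itself implies. For Plxna2 the interval ran from 0.008 to 1.12, while the unadjusted p of the quasi-likelihood test was 0.0607. CPM values use TMM-scaled library sizes, and levels per length divide them by kilobases of merged exons in GENCODE vM39. A floor of 3 counts per library was used against a group at or near 0. Bounds from this floor allow for counting error only, whereas SDs and standard errors include the variation between libraries. Reads carried no molecular identifiers, so copies made by amplification could not be told apart from separate molecules. The procedure was tested on simulated data with a 4-fold change in 200 of 13269 genes, drawn from those with a mean above 5 CPM. It recovered 60% of the changed genes and made 5 false calls, so a change of that size can go uncalled. For genes at lower levels the recovery was not measured. Alternatives were edgeR's exact test, DESeq2 1.42.0, RLE factors, counts without ribosomal RNA, no filter, at least 10 counts in every library, a replicate block and leaving out each library in turn. Lines of the files that name no gene were left out.

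Members named in full were those called, those tested whose cell types do not overlap, and the leading member of each class per length, and the alternatives were followed for these. Neo1 meets none of these criteria but is also given library by library, and its alternatives were not followed. Members that did not pass the filter are given by their counts and the others by class. Epha5, Sema3b, Sema3d, Sema4c and Sema6d were added after their values were seen, because an alternative called them. The members and lists were chosen with earlier results of these data known.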

Additional observations from a re-analysis of the deposited data

Results flagged for a closer look

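Among 38 groups of 6 libraries (19 members in each cell type), 9 held a highest library whose gap to the next one exceeded Dixon's 95% critical value of 0.625, as a share of the group's range. That value assumes normally distributed levels, whereas CPM without log transformation were used, so no rate by chance is given. It also assumes genes chosen without regard to their values. These members were not: Epha5, Sema3b, Sema3d, Sema4c and Sema6d were added because an alternative called them, in some cases the one that left out the library concerned, and without them the count was 6 of 28 groups. The counts are therefore a description. In IHC replicate 1 this held for Sema6d (gap 0.83 of the range), Ntng2 (0.74), Sema4b (0.73), Unc5a (0.72) and Plxnb2 (0.66), and that library also had 56.9% of its counts on ribosomal RNA. Epha5 stood out in IHC replicate 6 (0.97), Ntn4 in IHC replicate 2 (0.66) and in OHC replicate 5 (0.89), and Sema4c in OHC replicate 3 (0.73).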

How the results depend on the processing

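Epha7 was called in all 19 alternatives. The number of IHC-enriched members was 4 under edgeR's quasi-likelihood test and 6 under its exact test, with Sema3b and Sema6d added. It was 5 with no filter (Sema6d added), 8 with DESeq2, and 1 to 5 when 1 library was left out. The number of OHC-enriched members was 0, and 1 with no filter (Sema3g), 1 with the replicate block (Epha5), 2 with DESeq2 (Nrp1 and Sema3g), and 0 to 1 when 1 library was left out (Epha5 or Unc5b). OHC-enriched genes of the ligand and effector lists numbered 4, but 2 with at least 10 counts required in every library, where fewer genes were tested, and 8 with DESeq2. Over all genes, 506 IHC-enriched and 324 OHC-enriched calls became 893 and 918 with no filter, 751 and 519 with the exact test and 1339 and 1590 with DESeq2. Signs reversed for Ephb1 (leave-one-out range -0.11 to 0.29), Sema4b (-0.95 to 0.41) and Ntn4 (-2.60 to 0.85, and 0.73 with the replicate block); the cause was not tested. Same-numbered IHC and OHC libraries did not vary together (correlations of their deviations -0.031 to 0.018, none over 0.1). Such correlations cannot show whether same-numbered pools came from the same pups, so a pairing by number is not known. With the replicate block Rgma was not called, 4 members were IHC-enriched and 512 and 391 genes were called over all. For 14 members with means below 10 CPM the standard errors limit what could be detected.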
